A study of Danio rerio with 20 samples.

Results

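The embryos described here were zebrafish kept in 0.1% ethanol, the vehicle of the study, from 0.5 to 24 h after fertilization. They were chosen by their titles, which number the ethanol samples 1 to 5, and they make up 5 of the 20 arrays of the series. Each sample was total RNA of whole embryos from 1 of 5 independent replicates, with 100 embryos per treatment, labelled with Cy3 and put on 1 array. The labels give no strain or genotype. Embryos kept without ethanol were not analysed here, so no value below is an effect of ethanol. A sample pools its embryos, so differences between single embryos cannot be seen. The other 15 arrays, of embryos given hedgehog pathway inhibitors, are not compared with these.

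At 24 h after fertilization the zebrafish embryo has finished laying down most of its somites, the blocks of trunk muscle. Its heart has begun to beat, its first red cells enter the circulation and its lens and pigment cells have just begun to differentiate. It is still within its egg envelope, which enzymes of the hatching gland will later digest, and it lives on yolk, which the yolk syncytial layer packs into lipoproteins. A liver is not yet formed, and some plasma protein genes that the liver will use are already active in the yolk syncytial layer.

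Levels are given as the log2 of the background-subtracted signal of a gene's probe minus the 75th percentile of the same array, so that 0 is the 75th percentile and a step of 1 is a 2-fold difference. A level is the brightness of a single probe. Probes differ in how well they bind, and 26 of the 37 genes with several probes had probes whose mean levels lay more than 1 apart (median difference 1.58), so the order of different genes describes these arrays and not numbers of transcripts. In whole embryos, fewer cells of a type and less RNA per cell cannot be told apart. The 75th percentile of the signal was 698 on ethanol 3 and between 1495 and 2060 on the other 4 arrays. Of 14694 probes, 10725 on ethanol 3 to 12522 on ethanol 5 were well above background by the scanner software's measure, 11628 ± 786 on average (SD, n = 5). Ethanol 1 and ethanol 2 lay on 1 slide and the other 3 arrays on a slide each, and no spot was saturated. Precision is set by there being 5 arrays, and no p-value was computed, since there is 1 group.

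Of 14657 genes, 10078 (68.8%) were well above background on all 5 ethanol arrays, 2791 (19.0%) on 1 to 4 arrays and 1788 (12.2%) on 0 arrays. By the scanner software's other call, of a signal positive and significant against background, 421 genes were detected on 0 arrays. Among the 8697 genes with a symbol other than a clone name, the counts were 6926 (79.6%), 1173 (13.5%) and 598 (6.88%). The 36 lists of tissue and pathway genes used below share some members. The median level of a list's measured members lay above that of all genes, which was -3.03, for 30 of the 36 lists. The lists were written as gene symbols, while -3.03 also covers genes without such a name, which were detected less often. A median above -3.03 can thus reflect named genes in general, and the median of named genes alone is not given here. The shares on all 5 arrays, 68.8% of all genes and 79.6% of named genes, are the background for the detection counts below.

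**Figure D1:**
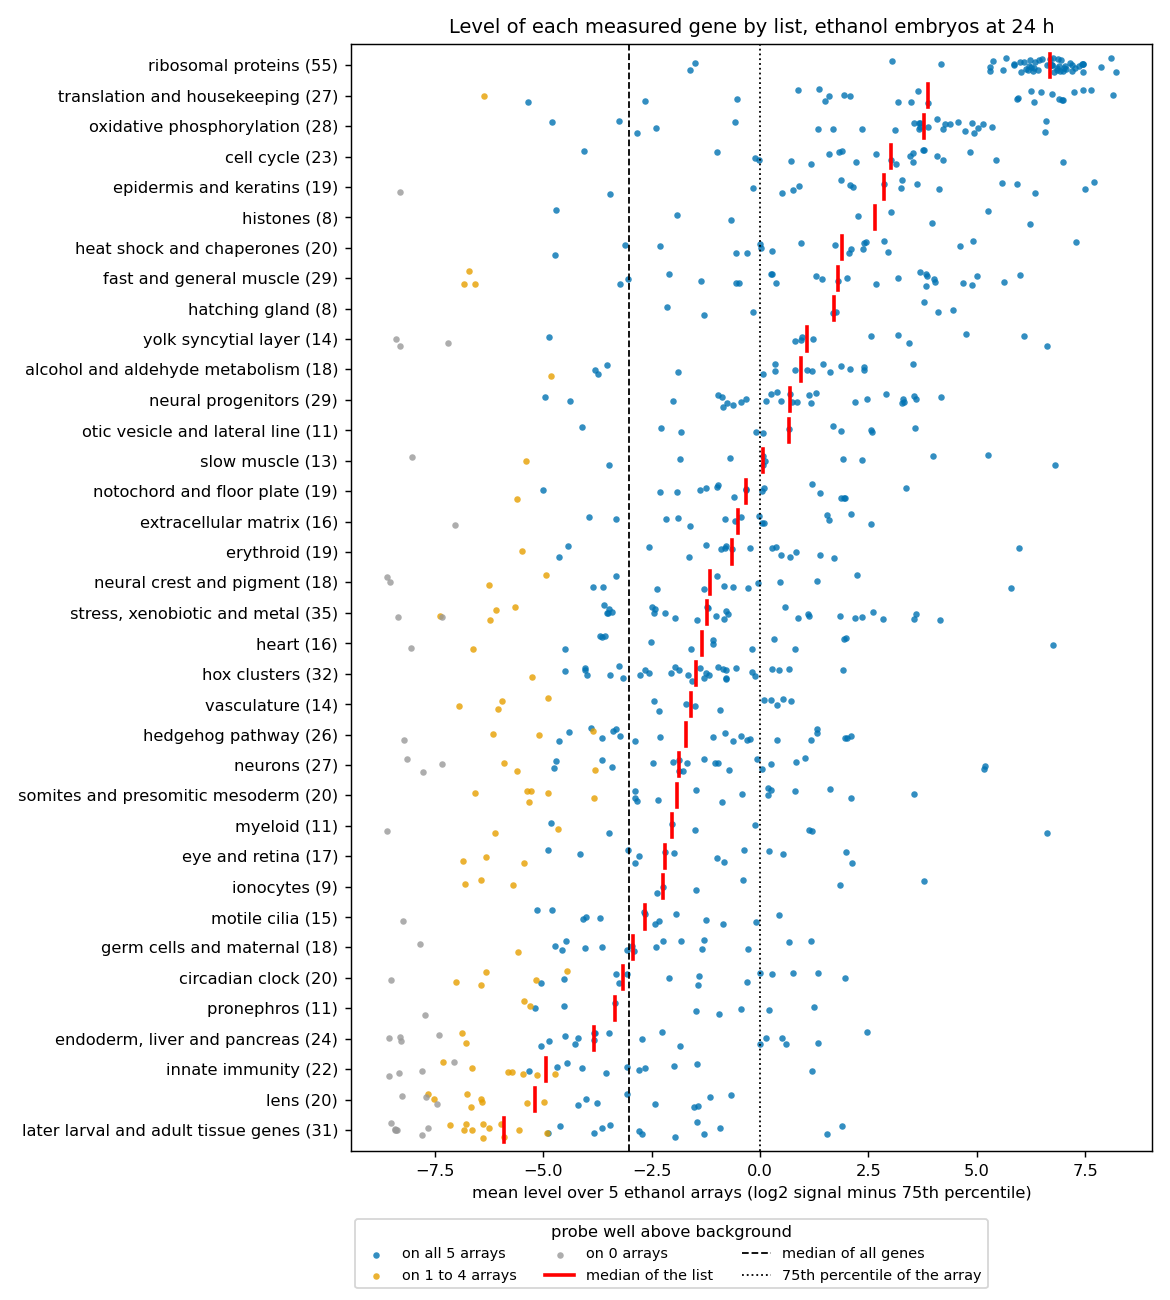
Mean level over the 5 ethanol arrays (log2 signal minus the 75th percentile) of each measured gene of 36 lists, ordered by the list's median (red bar), with the number measured in brackets. Blue points were well above background on all 5 arrays, orange points on 1 to 4 and grey points on 0; the dashed line is the median of all genes, -3.03, and the medians run from 6.69 for ribosomal proteins to -5.90 for genes of later larval and adult tissues.

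The brightest genes on the ethanol arrays were those of the protein-making machinery, followed by skin keratins, tubulins, actin and a chaperone. Of the 30 brightest named genes, rps2 had the highest mean level, with 8.10, 7.74, 8.73, 8.21 and 8.29 on ethanol 1 to 5, which is 297 times the 75th percentile. It encodes a protein of the small ribosomal subunit. Next came eef2b, the elongation factor that moves the ribosome along the message, at 8.14 ± 0.61 (SD, n = 5), and rpsa, another small-subunit protein, at 8.10 ± 0.46. Both were highest on ethanol 3, at 9.2 and 8.92. How far ethanol 3 lies above the others for the brightest genes depends on the scale, as given below for ribosomal proteins. The ribosome scaffold gene rack1 stood at 7.63 ± 0.52. Of the 100 brightest named genes, 44 were cytosolic ribosomal proteins and 12 belonged to the list of translation factors and common reference genes, which shares rpl13a with the first.

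All 55 measured ribosomal protein genes were well above background on all 5 arrays. Their median level was 6.69, against -3.03 for all genes, and 47 of the 55 (85.5%) were among the brightest 1% of genes. Oxidative phosphorylation, the nuclear-encoded respiratory chain, had a median of 3.79 over 28 genes. Its brightest members were slc25a5, the ADP/ATP carrier of the inner mitochondrial membrane, at 6.61 ± 0.37, and atp5f1b, a subunit of ATP synthase, at 6.57 ± 0.31. Proliferation genes had a median of 3.02 over 23 genes, and all 23 were above background on every array. Mcm7 and mcm2, which encode subunits of the helicase that opens DNA for replication, had mean levels of 6.98 ± 0.52 and 5.44 ± 0.46, while mcm5 of the same complex had 4.84 ± 0.08. Mcm7 measured 7.91 on ethanol 3 and between 6.67 and 6.82 on the other 4 arrays, which did not overlap with it. The variant histone gene h3f3a, whose product enters chromatin outside replication, reached 6.22 ± 0.12.

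**Figure D2:**
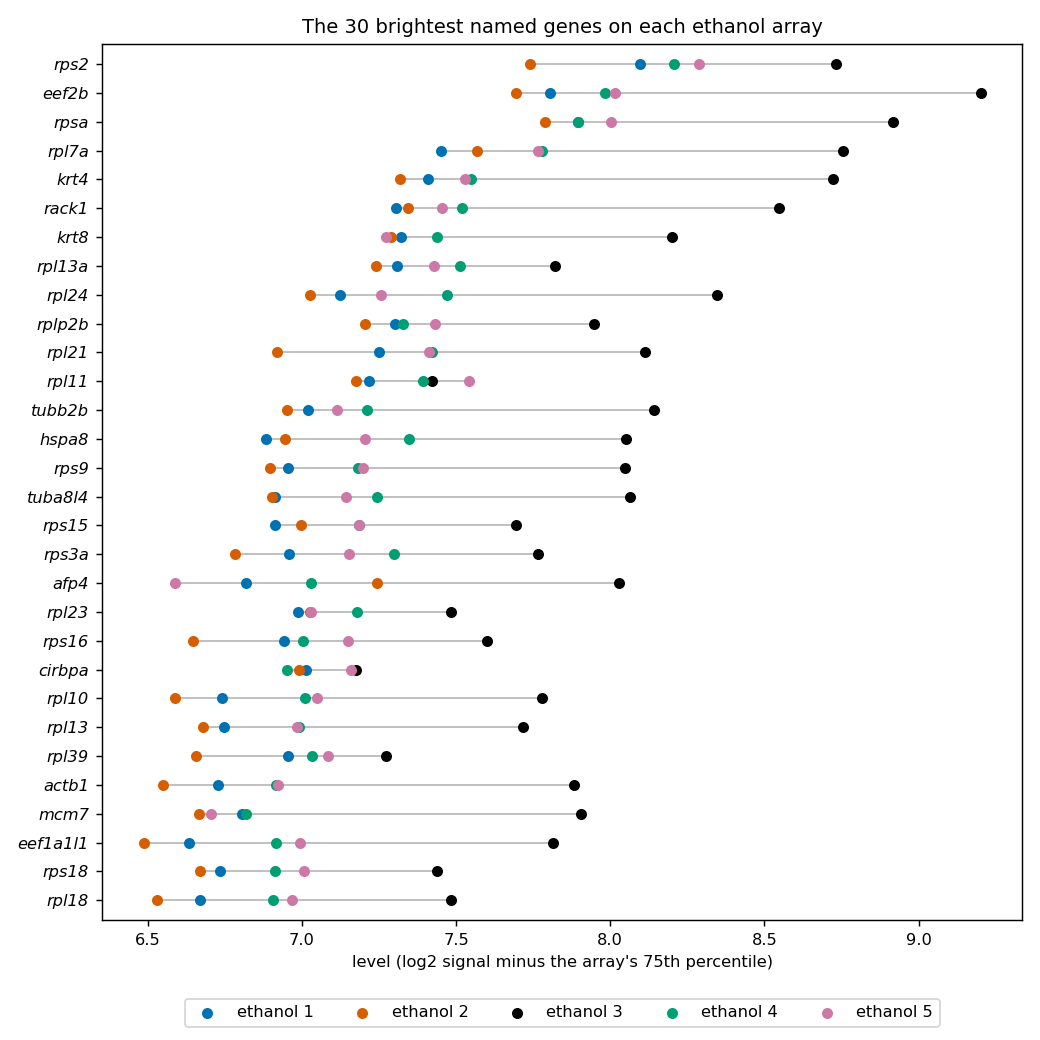
Level on each ethanol array (coloured points, log2 signal minus the 75th percentile) of the 30 named genes with the highest mean level, brightest at the top. Grey lines span the range, and for most of the genes ethanol 3 (black) is the highest point, as for eef2b at 9.2 against 7.70 to 8.01 on the other arrays.

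Among the tissue lists, skin had the most members in the 100 brightest named genes. The list of epidermal keratins and envelope genes had a median of 2.86 over 19 genes, against -3.03 for all genes, and 4 of its members were among the 100 brightest named genes. These were krt4 and krt8, keratins of the outer skin layer, krt92 and krt17. The levels of krt4 were 7.41, 7.32, 8.72, 7.55 and 7.53 on ethanol 1 to 5, and those of krt8 were 7.32, 7.29, 8.2, 7.44 and 7.27. For both genes ethanol 3 was the high array and the other 4 lay close together, with an SD of 0.11 and 0.07. At the other end, krt93 was not well above background on any array, and krt15 had a mean of -3.46 ± 0.58. Ionocytes, the skin cells that move salts, were represented by atp6v1aa, a subunit of the proton pump, at 3.79 ± 0.50 and by the carbonic anhydrase ca2 at 1.84 ± 0.39. Of the 9 measured ionocyte genes, 6 (66.7%) were above background on all 5 arrays, against 79.6% of named genes, and 3 on 1 to 4.

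In the hatching gland list, all 8 measured genes were well above background on all 5 arrays, with a median of 1.72. The hatching enzyme he1.1, a protease stored in the gland's granules, measured 3.86, 4.28, 4.16, 4.32 and 3.92 on ethanol 1 to 5. No array stood apart. Xbp1, a transcription factor of secretory cells, stood at 4.46 ± 0.22, and cd63, a tetraspanin of granule membranes that marks the gland, at 3.79 ± 0.16. Klf17, the transcription factor needed to form the gland, had a lower probe level of -0.15 ± 0.14. The disulfide isomerase gene agr2, known from secretory cells, stood at -2.15 ± 0.26, and tfap2a, a regulator of ectoderm that is not specific to the gland, at -1.30 ± 0.10. The sodium pump subunit atp1a1a.4 varied most, with 1.41, 1.3, 2.89, 1.95 and 0.86 on ethanol 1 to 5, which is an SD of 0.78. Cpn1, a carboxypeptidase subunit, had a mean of 1.75 ± 0.35.

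Muscle genes were bright, with a lower median than skin genes. The fast and general muscle list had a median of 1.81 over 29 genes, of which 26 were above background on all 5 arrays and 3 on 1 to 4. Aldoab, the muscle form of the glycolytic enzyme aldolase, reached 5.99 ± 0.60, and the fast myosin light chain gene mylpfa had 5.46, 4.88, 6.55, 5.99 and 5.26 on ethanol 1 to 5. Desma, the intermediate filament that ties sarcomeres together, stood at 5.00 ± 0.53, and tnni2b.1, a fast troponin I, at 4.90 ± 0.29. In mylpfa and desma, ethanol 3 and ethanol 4 were the 2 highest arrays. Myod1, which starts the myogenic programme, had a level of 2.00 with an SD of 0.10 over the 5 arrays, against 0.65 for mylpfa.

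The slow muscle list had a median of 0.07 over 13 genes. Its brightest member, the myosin light chain gene myl10, measured 6.77, 6.50, 7.16, 6.86 and 6.74 on ethanol 1 to 5. Myl13 stood at 5.25 ± 0.28, the tropomyosin gene tpm3 at 3.99 ± 0.18, the slow troponin C gene tnnc1b at 2.35 ± 0.29 and the actin gene actc2 at 1.91 ± 0.20. These myosin, tropomyosin, troponin and actin proteins make up the sarcomere. The slow myosin heavy chain gene smyhc1, the usual marker of slow fibres, measured 0.02, -0.22, 0.45, 0.55 and -0.26, while smyhc2 was not well above background on any array. Prox1a, a transcription factor that slow fibres switch on, was at -3.49 ± 0.11. Of the remaining members, tnni1c, fhl1a, stac3 and tnni4b.2 had mean levels of 0.07, 0.06, -0.68 and -1.84, and tnni1d was above background on 4 arrays.

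Heart genes ranged widely. Actc1a, a cardiac and skeletal actin, was at 6.77 ± 0.63 and was among the 100 brightest named genes, while the other 15 measured heart genes had a level of 1.97 or less. Mef2ca, which drives muscle differentiation, stood at 1.97 ± 0.19 on the brighter of its 2 probes and at -2.16 on the other. The cardiac light chain gene cmlc1 stood at 1.95 ± 0.24. The transcription factor gene gata5, active in heart precursors and endoderm, had a mean of 0.80 ± 0.35. The atrial myosin gene myh6 had -3.50, -4.32, -2.89, -3.27 and -4.22 on ethanol 1 to 5. Tbx20, a regulator of heart chambers, was not well above background on any array.

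Among blood genes, the embryonic alpha globin hbae1.1 stood out, with 5.92, 5.43, 6.27, 6.34 and 5.96 on ethanol 1 to 5. Ethanol 2 was its lowest array. The other measured globin, hbbe2, an embryonic beta globin, had 1.25, 0.88, 1.25, 1.91 and 1.63, again lowest on ethanol 2. The haem synthesis genes spread over several log2 units, with urod at 1.71 ± 0.10, cpox at -0.23 ± 0.28, alas2, the first enzyme of the pathway in red cells, at -0.79 ± 0.26, ppox at -1.63 ± 0.24 and fech, the last, at -2.56 ± 0.68. The transcription factors of the lineage had tal1 at 0.69 ± 0.42, gata1a at -0.90 ± 0.15 and klf1 at -4.64 ± 0.42. Of the membrane proteins, the anion exchanger gene slc4a1a had a mean of 0.49 ± 0.50, the spectrin gene sptb -1.25 ± 0.45, the cytoskeletal gene epb41b -0.65 ± 0.14 and the ammonia channel gene rhag -4.42 ± 0.56. The remaining erythroid genes were tspo, cahz, nt5c2l1 and blvrb, with means of 0.83, 0.37, 0.29 and -0.81. Only slc25a37, the mitochondrial iron importer, fell short of detection on 1 array, so 18 of 19 measured erythroid genes were above background on all 5.

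White cell genes gave less signal. Apoeb, an apolipoprotein of macrophages and of the yolk syncytial layer, stood at 6.63 ± 0.27, but it is not specific to either. The actin-bundling gene lcp1 and the transcription factor gene cebpa had mean levels of 1.2 ± 0.30 and 1.13 ± 0.25, whereas the macrophage gene mpeg1.1 stood at -4.82 ± 0.71. The receptor gene csf1ra, of macrophages and yellow pigment cells, was not well above background on any array. Innate immunity had a median of -4.93 over 22 genes, against -3.03 for all genes, with 11 on all 5 arrays, 7 on 1 to 4 and 4 on 0. Its brightest members were the complement genes cfd at 1.19 ± 0.12 and cfb at -1.46 ± 0.27. The 4 that were not above background on any array were c1qa, a part of complement C1, the interferon-induced ifit8, the immunoproteasome gene psmb8a and the acute-phase gene saa. In the vessels, etsrp, which starts the endothelial programme, reached 0.71 ± 0.21, the junction gene cldn5b 0.39 ± 0.23 and the receptor gene tek 0.26 ± 0.62. Of 14 vascular genes, 10 (71.4%) were above background on all arrays, against 79.6% of named genes. The other 4, named to complete the count, were the endothelial genes kdr on 1 array and cdh5 and efnb2a on 2 each, and dlc on 4.

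Neural genes showed progenitors above differentiated neurons on these probes. All 29 measured neural progenitor genes were above background on all 5 arrays, with a median of 0.68. Her9, a repressor of neurogenesis, stood at 4.17 ± 0.20, the SoxB genes sox19a and sox3, which hold cells in the progenitor state, at 3.60 ± 0.21 and 3.32 ± 0.09, and the Notch ligand gene dld at 3.55 ± 0.21. Differentiated neuron genes had a median of -1.86 over 27 genes. Of these, 21 (77.8%) were above background on all 5 arrays, against 79.6% of named genes, 3 on 1 to 4 and 3 on 0. The tubulin genes tubb5 and tuba1c led them at 5.20 ± 0.09 and 5.17 ± 0.27, followed by stmn2b, a microtubule regulator of growing axons, at 1.05 ± 0.51 and the proneural gene neurod1 at 0.82 ± 0.21. The genes not above background on any array were gad1b, which makes the transmitter GABA, slc17a6a, a vesicular glutamate transporter, and ddc, which makes dopamine and serotonin.

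In the eye list, with a median of -2.20 over 17 genes, the eye field transcription factor genes six3b and rx1 had mean levels of 1.99 ± 0.17 and 0.21 ± 0.31, and mab21l2, needed for eye growth, 2.12 ± 0.34. All 3 were above background on every array. Rpe65a, an enzyme of the visual cycle in pigment epithelium, stood at -2.20 ± 0.43.

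Lens genes were mostly dim, with a median of -5.18 over 20 genes, against -3.03 for all genes. Of the 20, 9 were above background on all 5 arrays, 8 on 1 to 4 and 3 on 0. The lens transcription factor gene foxe3 measured -1.55, -1.37, -1.41, -1.53 and -1.25 on ethanol 1 to 5, within 0.30 of each other. The brightest crystallins, which are the refractive proteins of the lens, were cryba4 at -0.67 ± 0.63, crygn2 at -1.16 ± 0.59 and cryba2b at -1.51 ± 0.17. The beta crystallin gene cryba1b spread over more than a log2 unit, with -2.49, -3.52, -1.46, -1.62 and -3.01, and crygmx had -3.82, -3.83, -1.32, -2.66 and -3.66. In both genes ethanol 3 and ethanol 4 were the 2 highest arrays. Crybb1l2, crybb1 and the lens membrane gene lim2.2 had mean levels of -3.76, -4.21 and -4.01. The alpha crystallin cryaa was above background on 1 array, crygm3 on 2, crygm2d13 on 1, cryba2a on 4, the filament gene bfsp2 on 4, the water channel genes mipa and mipb on 2 and 3 and the connexin gja8b on 1. Cryaba, cryabb and crygs3 were not above background on any array.

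In the neural crest and pigment list, gart and paics, enzymes of purine synthesis that pigment cells and other dividing cells use, had mean levels of 5.79 ± 0.46 and 2.24 ± 0.58. Sox10, the transcription factor of the crest, was steady at 1.31 ± 0.09, while tyrp1b, a melanin-making enzyme, measured -0.26, -1.09, 1.06, 0.61 and -0.52 on ethanol 1 to 5. Tyrp1b was thus highest on ethanol 3 and ethanol 4 and lowest on ethanol 2. Slc45a2, a melanosome transporter, stood at -2.38 ± 0.89, and the purine gene pnp4a of iridophores was not above background on any array.

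The hedgehog pathway is described in these embryos because the study's compounds act on it. Hedgehog ligands from the notochord and floor plate release the membrane protein smoothened from its inhibition by the patched receptors, and the gli transcription factors then switch genes of the ventral neural tube and slow muscle on. Of 26 measured genes, 22 were above background on all 5 ethanol arrays, 3 on 1 to 4 and 1 on 0, with a median of -1.70. Among the ligands, shha measured 2.06, 2.15, 1.79, 2.11 and 1.72 on ethanol 1 to 5. The probe of shhb stood at -2.30 ± 0.20, that of ihha at -2.89 ± 0.20, ihhb was above background on 4 arrays, and dhh on 0. Of the genes for release and reception, cdon, a co-receptor, had 2.1 ± 0.19, gas1b, another co-receptor, -0.43 ± 0.49, scube2 and disp1, which release the ligand, -3.90 ± 0.16 and -4.39 ± 0.48. The gene of smoothened, smo, had 1.33, 1.46, 1.46, 1.24 and 1.12, and the inhibitor gene sufu stood at 1.32 ± 0.20. Neither differed by more than 1.48-fold between arrays. Kif7, a kinesin that carries the signal to gli, was at -0.80 ± 0.19.

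Among the gli factors, gli2a and gli3 were at -0.22 ± 0.27 and -1.09 ± 0.18, gli2b at -3.64 ± 0.33, and gli1, which is itself a target, was above background on 3 of the 5 arrays. The inhibitor hhip, also a target, was above background on 4. Of the genes of the ventral neural tube, nkx6.1 stood at 1.17 ± 0.12, olig2 at 0.38 ± 0.13, nkx2.2a at -0.62 ± 0.15 and nkx2.9 at -3.39 ± 0.29. For nkx2.2a the arrays were -0.69, -0.71, -0.35, -0.66 and -0.69, and ethanol 3 lay apart from the others. The mesoderm genes had myod1 at 2.00 ± 0.10, nkx3-2, of the sclerotome, at -0.30 ± 0.25, foxf1, of gut mesenchyme, at -3.23 ± 0.11, en1a, of muscle pioneers, at -3.32 ± 0.31 and pax1a, also of the sclerotome, at -4.64 ± 0.30. The median SD of the 22 genes was 0.20, against 0.29 for all 10059 genes whose spread was measured, and without ethanol 3 both medians were 0.18.

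Further genes of the body axis were also present. In the notochord and floor plate list, the matrix-associated gene ccn2a reached 3.36 ± 0.16, tbxta, the notochord transcription factor, 1.94 ± 0.23 and cav1, of notochord caveolae, 1.88 ± 0.46. Hox genes, which specify position along the body, had a median of -1.48 over 32 genes, of which 31 were above background on all arrays. Hoxb8a was the brightest at 1.91 ± 0.14, and hoxa4a, hoxc8a and hoxb3a followed at 0.67 ± 0.16, 0.45 ± 0.30 and 0.27 ± 0.26. The value of hoxc8a is that of the brighter of its 2 probes, and the other stood at -1.65. The somite and tail bud list had a median of -1.92 over 20 genes, led, after dld, by the somite transcription factor gene meox1 at 2.09 ± 0.30. The retinoic acid-making enzyme aldh1a2 of somites measured 1.61 ± 0.07.

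The yolk syncytial layer list had a median of 1.09 over 14 genes, of which 11 were above background on all 5 arrays and 3 on 0. After apoeb, ctsla, a lysosomal protease, stood at 6.1 ± 0.56, apoa4b.1, an apolipoprotein, at 4.75 ± 0.50 and fabp1b.1, a fatty acid-binding protein, at 3.44 ± 0.36. The dimmest of the 11 detected was hnf4a, a transcription factor of the gut and liver, at a level of -4.88, under the median of all genes, and it is named here to complete the range. The genes not above background on any array were apoa1b, mxtx2, an early regulator of the layer, and the yolk protein gene vtg2. Endoderm, liver and pancreas genes had a median of -3.82 over 24 genes, and fgb, a fibrinogen chain, led them with 2.36, 2.70, 3.00, 2.70 and 1.64 on ethanol 1 to 5. Ethanol 5 was the low array. The early endoderm genes sox32 and sox17, the pancreatic enzyme cpa5 and the glucagon gene gcga were not above background on any array.

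Genes known mainly from later stages had a median of -5.90 over 31 genes, the lowest of the 36 lists. Of these 31, 13 were above background on all 5 arrays, 11 on 1 to 4 and 7 on 0. The 7, all named to complete the count, were the cone opsin opn1mw1, the hormone genes oxt, pomca and prl, the antigen receptor recombinase rag1, and vtg2 and vtg5. On the other hand plp1a, a myelin protein of the mature brain, stood at 1.89 ± 0.29, and bglap, a bone matrix protein, at 1.54 ± 0.49. The insulin gene ins, which the first pancreatic beta cells make, was above background on all 5 arrays at -3.82 ± 0.87.

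Of 18 measured genes in the alcohol and aldehyde metabolism list, which also holds retinoid enzymes and acsl4a, 17 (94.4%) were above background on all 5 arrays. That share was 79.6% for named genes, and the list's median level was 0.95. The aldehyde dehydrogenase gene aldh7a1 was brightest at 3.53 ± 0.25, followed by adh5, the alcohol dehydrogenase that also clears formaldehyde, at 2.40 ± 0.31. The dehydrogenase genes adh8b and adh8a differed, with adh8b at 1.45 and adh8a above background on 4 arrays only. The mitochondrial aldehyde dehydrogenases aldh2.2 and aldh2.1 had mean levels of 1.2 ± 0.16 and 0.07 ± 0.21. The catalase gene cat stood at -3.54 ± 0.38 and the cytochrome gene cyp2p6 at -3.74 ± 0.37. Of the retinoic acid degrading enzymes, cyp26c1, cyp26a1 and cyp26b1 had mean levels of 2.08 ± 0.28, 0.81 ± 0.25 and 0.34 ± 0.28. Among the makers, rdh10b stood at 1.87 ± 0.20 and aldh1a3 at -3.80 ± 0.14, and dhrs3a, which returns retinal to retinol, at -1.89 ± 0.18. The remaining members acsl4a, aldh9a1b and aldh4a1 had mean levels of 2.40, 1.08 and 0.35. Of the 16 genes with a measured spread, 1 (6.25%) varied by more than 2-fold over the arrays, against 28.4% of all genes. Without ethanol 3 these shares were 0% and 9.70%, while the median SD was 0.18 both for the list and for all genes.

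In the stress list, the brightest genes were ccng1, a p53 target, at 4.15 ± 0.72, the thioredoxin reductase gene txnrd3 at 3.60 ± 0.26 and the glutathione transferase gstp1.2 at 3.55 ± 0.17. Ccng1 measured 2.89 on ethanol 3 and between 4.26 and 4.64 on the other arrays. Chaperones had a median of 1.89 over 20 genes, all above background on every array. Hspa8, the constitutive Hsp70, stood at 7.29 ± 0.47, hspa5 of the endoplasmic reticulum at 4.90 ± 0.34 and hsp90aa1.1, which muscle uses to fold myosin, at 4.62 ± 0.41. Circadian clock genes had a median of -3.16 over 20 genes, with the repressor bhlhe40 at 1.96 ± 0.09 and nfil3 at 1.34 ± 0.28. The clock gene per1b had 0.97, 1.36, 0.14, 0.24 and 1.1 on ethanol 1 to 5, low on ethanol 3 and ethanol 4, and its paralog per1a had -1.73, -2.14, 0.08, -1.44 and -1.82, high on ethanol 3. The melatonin-making enzyme aanat2 was not above background on any array.

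Germ cell and maternal transcripts had a median of -2.93 over 18 genes, of which 16 were above background on all arrays. The cyclin gene ccnb2 stood at 1.17 ± 0.29, the egg envelope gene zp2.5 at 0.66 ± 0.37 and the germ cell gene nanos3, which keeps the first germ cells alive, at -1.28 ± 0.27. In the kidney list the cadherin gene cdh17 reached 0.21 ± 0.44 and pax2a, a regulator of the pronephros, -0.43 ± 0.29, with a median of -3.33 over 11 genes. Motile cilia had a median of -2.66 over 15 genes, with the master regulator foxj1a at -1.94 ± 0.52, and ear genes one of 0.67 over 11, with the transcription factor gene dlx3b at 2.59 ± 0.06. Matrix genes had a median of -0.51 over 16 genes, led by sparc, a collagen-binding protein, at 2.56 ± 0.23.

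The 5 replicates differed more through 1 array than through any other. The first principal component of the 10059 genes above background with 5 values held 66.3% of the variance, and ethanol 3 scored -0.86 on it while the other 4 arrays scored between -0.01 and 0.33. The median absolute difference between a pair of arrays was 0.42 to 0.52 for the 4 pairs with ethanol 3, 0.15 for the pair on the same slide, ethanol 1 and 2, and 0.17 to 0.24 for the other 5 pairs. Ethanol 3 was the highest array for 4783 genes (47.5%) and the lowest for 2818 (28.0%). The array with the lowest 75th percentile was also ethanol 3, whose brightest control spike-in RNA had a raw log2 signal of 18.3, against 18.2 or less, but stood at 8.82 relative to the embryo RNA's 75th percentile, against 6.99 to 7.45 on the other arrays. The part of the slide and of the lower signal in the differences of ethanol 3 was not tested. The main counts and medians of spread are therefore given with and without ethanol 3.

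**Figure D3:**
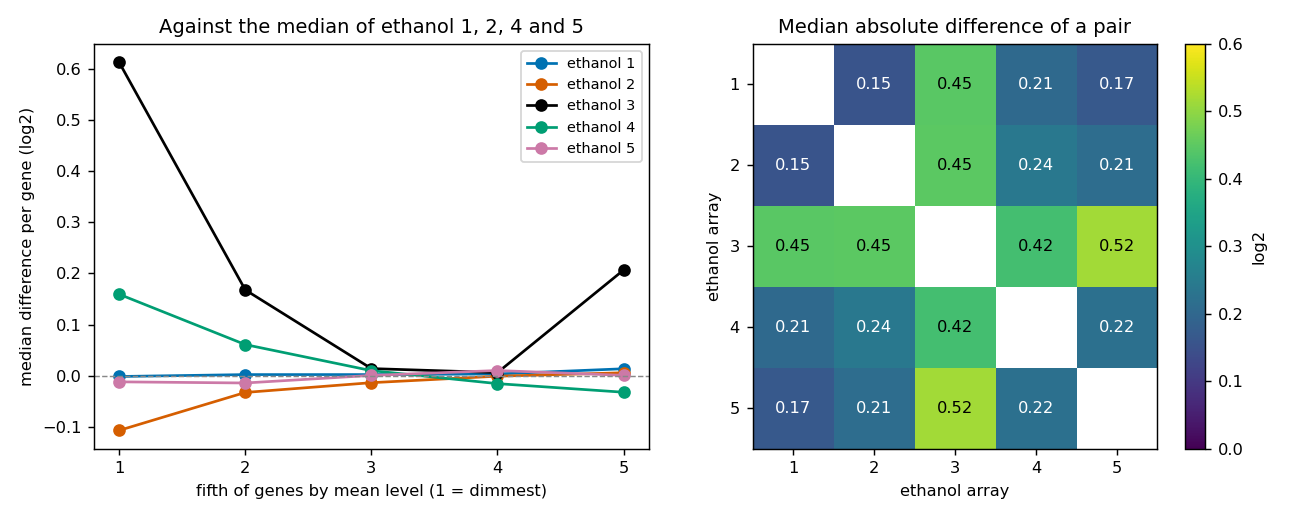
Left, the median difference of each ethanol array from the gene's median over ethanol 1, 2, 4 and 5 (log2), for the 10059 genes in 5 bins by mean level; ethanol 3 lies 0.61 above for the dimmest genes and 0.21 above for the brightest. Right, the median absolute difference (log2) between each pair of arrays, between 0.42 and 0.52 in the 4 pairs with ethanol 3 and between 0.15 and 0.24 in the others.

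Over all 5 arrays the median SD was 0.29 and 2854 genes (28.4%) varied by more than 2-fold, 435 of them (4.32%) by more than 4-fold. Without ethanol 3 the median SD was 0.18, and 976 genes (9.70%) varied by more than 2-fold and 76 (0.756%) by more than 4-fold. Dim genes varied more, with a median SD of 0.43 among the fifth of genes with the lowest levels, against 0.22 among the fifth with the highest, and 0.31 against 0.13 without ethanol 3. A set of 38 probes above background was spotted 5 or 6 times on each array. Their median SD between spots of 1 array was 0.07, against 0.23 between arrays, and 36 of the 38 varied more between arrays. Without ethanol 3 these values were 0.07, 0.18 and 31. The spread between arrays holds that between samples as well as that of hybridization, and these were not told apart.

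Genes of fast muscle were among the most variable genes. Pvalb1, a parvalbumin, the calcium buffer of fast fibres, had the largest SD of the named genes, 1.93, with -3.40, -5.55, -1.03, -1.19 and -4.05 on ethanol 1 to 5, a 22.9-fold range. Tnnt3b, the fast troponin T, had an SD of 1.61 with -1.32, -2.35, 1.31, 1.1 and -1.20. Both were highest on ethanol 3 and ethanol 4 and lowest on ethanol 2, and their SD without ethanol 3 was 1.81 and 1.46. Casq1b, calsequestrin, which stores calcium in muscle, had -3.71, -4.30, -1.83, -1.59 and -3.86. Another parvalbumin gene, pvalb4, had -3.82, -4.50, -2.15, -1.93 and -3.80, like casq1b highest on ethanol 4 and lowest on ethanol 2. Pvalb1 and pvalb4 were the only neighbours on a chromosome among the 100 most variable named genes. Slc25a4, the ADP/ATP carrier that in mammals serves heart and skeletal muscle, also had its 2 highest levels, -2.81 and -2.98, on ethanol 3 and ethanol 4.

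Of the 100 most variable named genes, 10 belonged to any list. The lists held 711 measured genes, beside 8697 named genes on the arrays, so the count of 10 is not read as a result. The share of ranked named genes in any list is not given here. Runx2b, a transcription factor of bone, had -3.53, -5.10, -0.57, -2.62 and -4.04 on ethanol 1 to 5, and paqr7a, a membrane progestin receptor, -4.04, -6.16, -1.61, -4.07 and -3.59. A second progestin receptor gene, paqr5b, had -3.12, -4.96, -1.31, -3.16 and -2.67. In all 3 genes ethanol 3 was highest and ethanol 2 lowest. Eif2b3, a subunit of the factor that recycles eIF2 for translation, had 2.23, 1.47, 4.85, 2.2 and 1.82, and cry3a, a cryptochrome of the clock, had -3.53, -4.35, -1.18, -3.12 and -3.17. Their SD of 1.34 and 1.17 was 0.36 and 0.57 without ethanol 3. Mtf1, the transcription factor that responds to metals, went the other way, with 0.35, 0.25, -2.22, 0.78 and 0.83.

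The growth factor genes fgf23 and fgf16 varied differently. Fgf23, a hormone of phosphate balance, had -2.86, -5.68, -4.33, -5.67 and -4.71, highest on ethanol 1, and fgf16 had -3.47, -4.04, -1.12, -2.91 and -3.56, highest on ethanol 3. Of the 100 most variable named genes, 99 had a mean level below 0, and 83 were highest on ethanol 3. Of all genes, 47.5% were highest on that array. The ranking used the SD over all 5 arrays, so a high share on ethanol 3, the most distant array, is partly built in. Dim genes varied more, as given above, and the share of all ranked genes with a mean below 0 is not given here. When ethanol 3 was left out, 45 of the 100 stayed among the 100 most variable named genes.

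The heat shock gene hsp70l varied through another array. This inducible Hsp70 measured -1.18, 1.62, -0.51, -1.34 and -1.37 on ethanol 1 to 5, so that ethanol 2 lay above the highest of the other arrays by more than 2 log2 units. Hspa8 had 6.95 on ethanol 2, within the range of the other arrays. Hspb11, a small heat shock gene, did not share the pattern, with -5.06, -4.61, -3.80, -4.11 and -6.11.

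**Figure D4:**
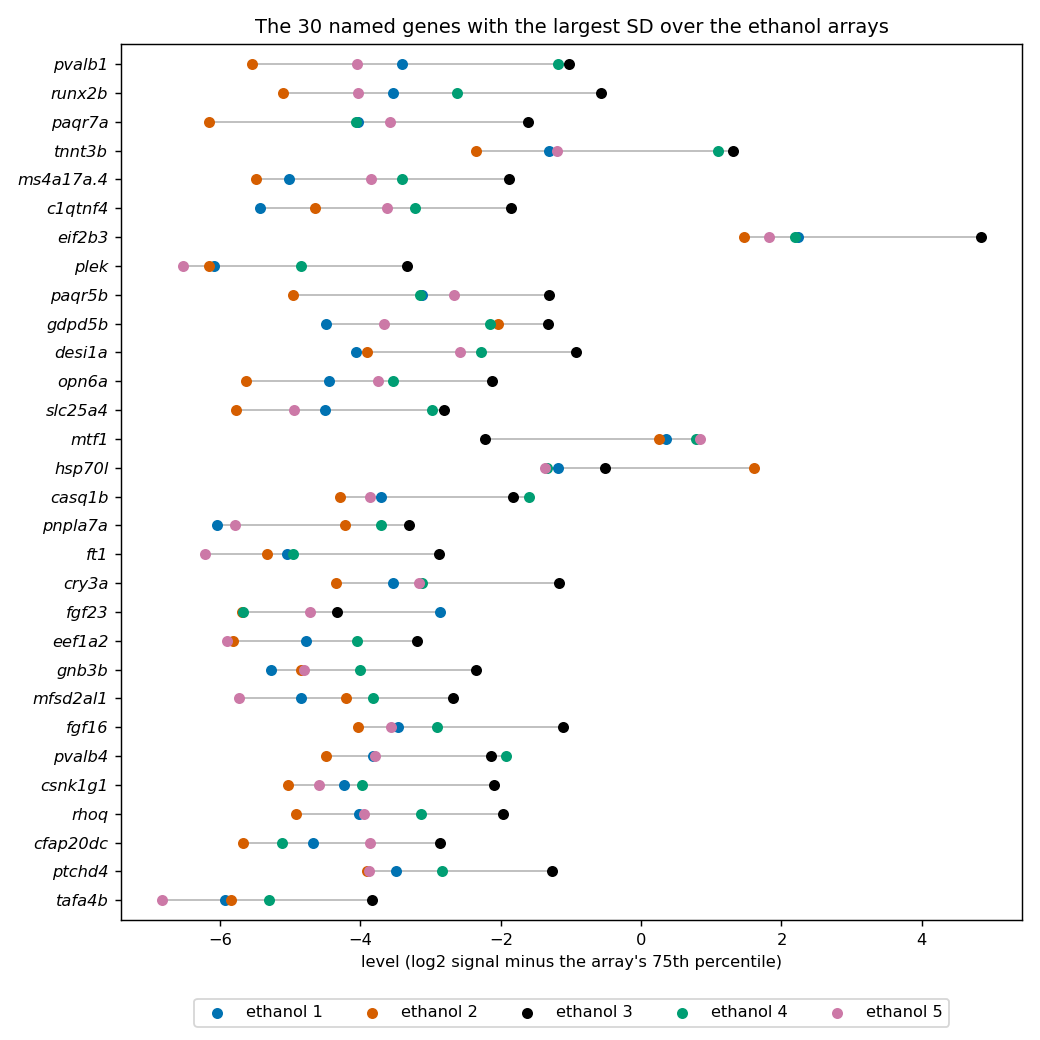
Level on each ethanol array (coloured points, log2 signal minus the 75th percentile) of the 30 named genes with the largest SD among genes above background on all 5 arrays, largest SD at the top. Ethanol 3 (black) is the highest array for most, mtf1 is low on it, and hsp70l is high on ethanol 2 (orange) at 1.62 against -1.37 to -0.51.

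Without ethanol 3, lists of genes still moved together between the other 4 arrays, as the plot of lists by array shows. Of the 26 fast and general muscle genes above background, 23 (88.5%) were highest on ethanol 4, against 34.3% of all genes. On ethanol 2, 15 (57.7%) were lowest, against 31.8% of all genes. Their median difference from the gene's mean over the 4 arrays was 0.49 on ethanol 4 and -0.38 on ethanol 2, against 0.03 and -0.02 for all genes. Between 21 and 23 of the 26 were highest on ethanol 4 under each scaling, background correction and source of values tried. Lens genes had the same highest and lowest array, with 7 of 9 highest on ethanol 4, at a median difference of 0.59, and 6 lowest on ethanol 2. Of 21 neuron genes 17 were highest on ethanol 4, but 12 with the array's median as the scale, and of 18 erythroid genes 14, but 10 with that scale.

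Yolk syncytial layer and matrix genes were low on ethanol 5, and they were not alone in this. Lowest there among the 4 arrays were, for example, 5 of 8 white cell (myeloid), 7 of 10 vascular, 7 of 11 ear and 5 of 8 hatching gland genes. The median difference of the white cell genes on ethanol 5 was -0.35. Of 11 yolk syncytial layer genes, 9 were lowest there, against 25.7% of all genes, and 7 were highest on ethanol 2, against 22.3% of all genes. Apoa1a, the main apolipoprotein of high-density lipoprotein, had 2.88, 3.79, 3.58, 3.38 and 2.34 on ethanol 1 to 5, and apoa4b.1 had 4.56, 5.27, 5.15, 4.74 and 4.04. In both, ethanol 2 was highest and ethanol 5 lowest of the 5. Of 15 extracellular matrix genes, 11 were highest on ethanol 4, against 34.3% of all genes, and 11 lowest on ethanol 5, against 25.7%. The type I collagen genes col1a1a and col1a2 had 1.55, 1.79, 3.29, 2.59 and 1.22, and -0.98, -0.91, 0.77, 0.10 and -1.17. For both, ethanol 3 and ethanol 4 stood above the other 3 arrays.

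Hox genes ran the other way, with small differences. Of 31, 20 were highest and 0 lowest on ethanol 5 among the 4 arrays, against 25.2% and 25.7% of all genes, with a median difference of 0.16. Over all 5 arrays, 23 of the 31 were lowest on ethanol 3, against 28.0% of all genes. This count was 18 to 25 under the other scalings, background correction and source of values. Hoxc8a, for example, had 0.52, 0.39, -0.02, 0.59 and 0.77 on ethanol 1 to 5. Of 55 ribosomal protein genes, 42 (76.4%) were lowest and 0 highest on ethanol 2 among the 4 arrays, against 31.8% and 22.3% of all genes. These counts used the 75th percentile as the scale, and those under other scales are not given here. The place of ethanol 3 in this list changed with the scale. With the 75th percentile as the scale, 40 of 55 were highest on ethanol 3, against 47.5% of all genes. In the authors' deposited normalized values, 4 were highest and 36 lowest there, and the shares of all genes in those values are not given here.

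**Figure D5:**
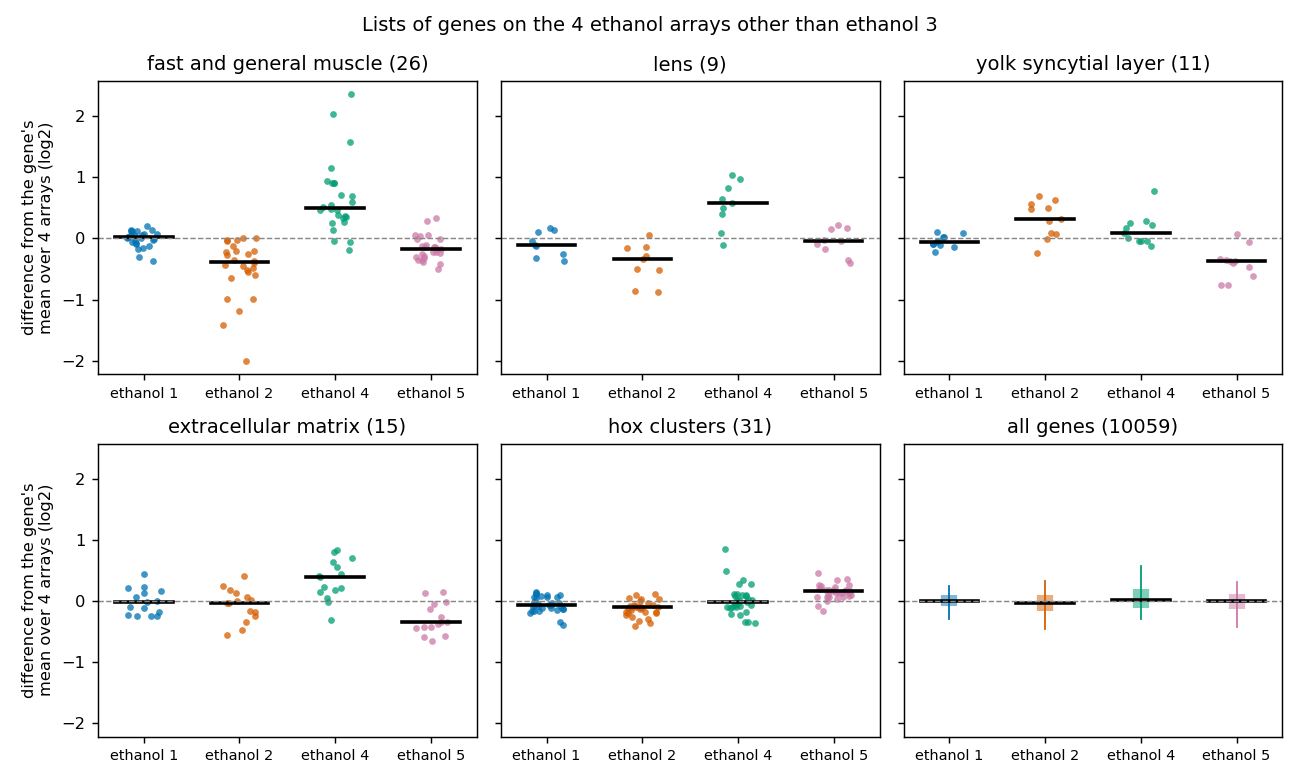
Difference of each gene's level from its mean over ethanol 1, 2, 4 and 5 (log2) for genes above background in 5 lists (points, black bar at the median) and for all 10059 genes (thick bar from the 25th to the 75th percentile, thin line from the 5th to the 95th). Muscle and lens genes are high on ethanol 4, with medians of 0.49 and 0.59, and yolk syncytial layer and matrix genes are low on ethanol 5, with medians of -0.38 and -0.35.

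Single genes also stood apart on other arrays. On ethanol 4, elavl2, an RNA-binding protein of neurons, had -1.54 against -3.26 to -2.83, and prkar1b, a regulatory subunit of protein kinase A, had -5.65 against -4.46 to -4.24. On ethanol 5, nyx, a proteoglycan of the retina in mammals, had -5.59 against -4.07 to -3.55, and cabp2a, a calcium-binding protein, -4.32 against -3.08 to -2.69. On ethanol 2, ptf1a, which directs pancreas and hindbrain neurons, had -5.66 against -4.16 to -3.66, and socs1a, an inhibitor of cytokine signals, -5.89 against -4.68 to -4.45. On ethanol 1, irf1b, an interferon regulatory factor, had -3.32 against -4.42 to -4.22. All of these were probes of low level.

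At the steady end, 10 named genes had an SD of 0.03 or less. The glyoxylate reductase gene grhpra had -2.21, -2.2, -2.19, -2.22 and -2.21 on ethanol 1 to 5, and the calmodulin gene calm3b had 3.73, 3.71, 3.70, 3.74 and 3.71. The others were cul1a, a scaffold of ubiquitin ligases, rdh14a, cyth1a, pgls, rida, hnrnpc, an RNA-packaging protein, gpat4 and dedd. Their mean levels ran from -2.59 for gpat4 to 3.72 for calm3b. None of the 10 lay in the dimmest of the 5 bins by mean level, which ran from -5.81 to -3.60. Among common reference genes, actb1, cytoplasmic actin, had an SD of 0.52 over the 5 arrays and eef1a1l1 one of 0.52, against 0.18 and 0.24 without ethanol 3, and b2m one of 0.52, against 0.16. The list of translation factors and common reference genes had a median SD of 0.34 over 26 genes, against 0.29 for all genes. Without ethanol 3 these medians were 0.14 and 0.18, and with quantile normalization of the 5 arrays 0.16 and 0.27.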

How the data were processed

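Gene expression was measured in 20 whole-embryo samples with 1-colour Agilent arrays, of which the 5 ethanol arrays were analysed here. Per the file headers, the deposited intensity values came from Agilent Feature Extraction 10.1.1.1, which subtracted the background of each spot. Per the series' design text, log2 values that the authors had normalized from these signals were deposited for all arrays. They were used as an alternative, and their normalization method is not given in the sources used here.

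Control spots were left out and spots called as outliers (1 to 14 per array) were set aside. Spots of a probe were averaged after taking log2 of the processed intensity minus the array's 75th percentile, and the brightest probe stood for a gene. Of 14694 probes, 9185 had a symbol through the array's accessions and the RefSeq gene table, which was used for names and neighbours only, and 3750 Ensembl transcript probes stayed unnamed. Of 1080 genes written in the 36 lists, 711 were measured. Spread was the SD over the arrays among 10059 genes well above background on all 5 arrays with 5 values. The ranking was also run on simulated data in which most genes had the same spread and no array stood apart. The real arrays differ in both respects, so that run cannot show how well the ranking holds here. An array was said to stand apart where its gap to the nearest other array, divided by the gene's range, passed Dixon's 0.71. Samples are called replicates as the labels call them independent; nothing further on their origin is given, and no test was run within 1 group.

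The members and gene lists were chosen with earlier results of these data known. Genes named are the 30 brightest, the 30 with the largest and 10 with the smallest SD, up to 5 per array that stood apart most, from each list the 4 brightest, the 2 most variable and up to 4 not above background on any array, and every measured gene of the hatching gland, erythroid, slow muscle, lens, hedgehog and alcohol lists. Alternatives were median, quantile and the authors' scaling, normexp background correction with offset 50, other filters, calls and probe rules, 1 array per slide, and leaving arrays out. Normexp used the spots' median signals, since mean signals were not used here. The patterns of lists and genes without ethanol 3 and the comparison of repeated spots were added after the data were seen. A planned description of promoter letters was not run, as no promoter table was used here. Python 3.11.15, numpy 2.4.6, pandas 2.3.3, R 4.3.3 and limma 3.58.1 were used. A result on 1 gene is not reported here.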

Additional observations from a re-analysis of the deposited data

Results flagged for a closer look

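In 32 of the genes named, 1 of the 5 ethanol arrays stood apart from the other 4. The measure is the gap from the highest or lowest array to the nearest other one, as a share of the gene's whole range, and a share above 0.71 counts. Cryabb, not above background on any array, also passed with 0.859 but is not among the 32. Chance gives a share above 0.71 in about 1 in 20 groups, and 1254 of the 10059 genes (12.5%) passed. Some of the genes were named because they passed.

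Ethanol 3 stood apart in 22 of these genes. Among all 1254 genes that passed, it was the high array in 650 and the low array in 405, so most of them stood apart on ethanol 3 too. It was the high array in mcm2 with a share of 0.912, mcm7 with 0.877, nkx2.2a with 0.852, krt4 with 0.835, rack1 with 0.827, krt8 with 0.822, rpsa with 0.810, slc25a5 with 0.807, eef2b with 0.788 and eif2b3 with 0.774. It was also high in gja8b, which was above background on that array only, with 0.739, krt92 with 0.727, actb1 with 0.721, actc1a with 0.716 and xbp1 with 0.713. It was the low array in ihhb with 0.828, mtf1 with 0.81, ccng1 with 0.784, neurod1 with 0.765, b2m with 0.716, foxj1a with 0.715 and gas1b with 0.711. Mcm2, for example, measured 6.26 on ethanol 3 and between 5.20 and 5.29 on the other arrays. Ethanol 3 had the lowest 75th percentile of signal, and the part of that in these shares was not tested. With quantile normalization the SD of krt4 was 0.06, against 0.58 with the 75th percentile, that of krt8 0.10 against 0.39, rack1 0.09 against 0.52, rpsa 0.12 against 0.46 and eef2b 0.12 against 0.61. That of mtf1 was 1.32 against 1.27 and that of eif2b3 1.2 against 1.34.

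Other arrays stood apart in 10 genes. Ethanol 2 was high in nt5c2l1, a nucleotidase gene, with 0.725, and in hsp70l with 0.714, and low in socs1a with 0.839 and ptf1a with 0.747. Ethanol 4 was low in prkar1b with 0.842 and high in elavl2 with 0.752. Ethanol 5 was low in cabp2a with 0.762 and nyx with 0.742. Ethanol 1 was high in irf1b with 0.82 and low in dlx3b with 0.723, although dlx3b varied little, with an SD of 0.06. Nt5c2l1 measured 0.27, 1.03, -0.02, 0.00 and 0.15 on ethanol 1 to 5.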

How the results depend on the processing

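No paired analysis was possible because the ethanol arrays were the only group analysed. The number shared with the 30 brightest named genes and the number of lists above the median of all genes stayed within 1.5 times under the alternatives tried, as did 79 of 97 counts and medians in all, while 18 moved. The median SD, 0.29 in all 5 arrays, was 0.183 without the dimmest slide (that of ethanol 3) and 0.189 to 0.310 when 1 array was left out. Of the 30 most variable named genes, 17 were shared with normexp background correction, 16 without the dimmest slide, 19 with 1 array per slide, 12 with the median absolute deviation, 4 with no filter on dim genes, 1 among genes with a mean above the 75th percentile, and 15 to 26 when 1 array was left out. The filters change which genes can be ranked. The number of genes that varied by more than 2-fold was 976 without the dimmest slide, 6836 with no filter and 1097 to 2765 when 1 array was left out. For more than 4-fold it was 116 with normexp, 76 without the dimmest slide, 1941 with no filter and 78 to 435 when 1 array was left out. Leaving out ethanol 3 gave the lowest of these, and the values 1097 and 78 come from the larger set of genes above background on the other 4 arrays. With the positive and significant call, 421 genes were above background on 0 arrays. The cause of these shifts beyond the change of filter or arrays was not tested. The limit of detection differed between arrays, since the lowest level called well above background was -5.18 on ethanol 3 and -7.08 on ethanol 1 and 5, and 668 of the 1030 genes detected on 4 arrays fell below background on ethanol 3 alone. Of the levels of named genes, 98 moved by more than the gene's SD with normexp, 11 with the authors' table and 1 with outlier spots kept, out of 261 genes.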

Other observations

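The genes described here were chosen after their values were seen. Without ethanol 3, 976 genes varied by more than 2-fold among ethanol 1, 2, 4 and 5, and 629 of them (64.4%) were highest on ethanol 4. Of all genes, 34.3% were highest on ethanol 4 among these 4 arrays, and 31.8% lowest on ethanol 2. Genes in the dimmest of 5 bins by mean level had a median difference from their own median of 0.16 on ethanol 4. It was -0.11 on ethanol 2, and -0.03 and 0.01 on ethanol 4 and 2 in the brightest bin. The part of this trend with brightness in the counts of the 976 genes was not tested. The commonest pattern among the 976, in 325 genes (33.3%), was highest on ethanol 4 and lowest on ethanol 2. The share of all genes with both is not given here. Examples picked from this pattern are 3 muscle genes, and no count of muscle genes in it was made. Atp2a1, the calcium pump of fast fibres, had 4.47, 3.99, 5.51, 5.39 and 4.06 on ethanol 1 to 5. The creatine kinase genes ckma and ckmb, which buffer ATP in muscle, had 3.06, 2.5, 3.75, 3.75 and 2.87, and 3.58, 2.86, 4.45, 4.19 and 3.38. In all 3 genes ethanol 3 and ethanol 4 stood above the other 3 arrays.

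A different pattern, highest on ethanol 2 and lowest on ethanol 5, was seen in 140 of the 976 genes (14.3%). Of all genes, 22.3% were highest on ethanol 2 and 25.7% lowest on ethanol 5 among the 4 arrays. The share of all genes with both is not given here, so the 14.3% has no background to be read against. Examples picked from this pattern are 4 genes that the adult liver or plasma is known for, and no count of such genes in it was made. Bhmt, which makes methionine from betaine, had 4.35, 5.06, 5.04, 4.46 and 3.61 on ethanol 1 to 5, and gatm, the first enzyme of creatine synthesis, had 4.80, 5.23, 5.56, 4.63 and 4.04. The gluconeogenesis gene fbp1b had 2.77, 3.89, 3.26, 2.93 and 2.31. The kininogen gene kng1, of the plasma, had 3.12, 3.85, 3.57, 3.04 and 2.3. In each of these 4 genes ethanol 5 was the lowest of all arrays and ethanol 2 was the highest but for gatm, which was higher on ethanol 3.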
